A study of Oryza sativa with 8 samples.

Results

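The comparison described here is the difference between the transcript responses of 2 rice genotypes to 2-nitroaniline, a nitroaromatic compound. For each gene the response of the transgenic line OE1 (treated minus untreated) was compared with the response of the cultivar ZH11 on a log2(TPM + 1) scale, where TPM is transcript abundance scaled to a fixed total per library. Of the 57403 genes in the expression matrix, 25281 had a TPM of 1 or more in 2 or more libraries and entered the comparison. A positive difference means that the OE1 response lay above the ZH11 response, whatever the direction of either.

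Whole seedlings were grown in hydroponic medium for 2 weeks. They were collected untreated or after 8 h with 0.8 mM 2-nitroaniline. ZH11 is a japonica cultivar and served as the wild type, and OE1 is labelled as a transgenic line overexpressing ScOYE3, a baker's yeast gene of the old yellow enzyme family. Each combination of genotype and treatment had 2 libraries made from pools of 20 plants. OE1 is 1 line, and the promoter of its transgene is not given in the sources used here. The matrix held 0 entries naming the transgene, so its level was not analysed here. The labels do not give separate cultures or treatments for the pools of a group, so p-values here describe the spread among these libraries alone, and that spread may be technical. In RNA from whole seedlings, fewer cells of a type and less RNA per cell cannot be told apart.

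Old yellow enzymes carry a flavin cofactor, and members of the family can reduce nitro groups and activated carbon double bonds. Plants handle foreign compounds in steps. Cytochrome P450 monooxygenases oxidise them, glycosyltransferases, glutathione S-transferases and acyltransferases attach a sugar, glutathione or an acyl group, and ABC and MATE transporters move the products into the vacuole or out of the cell. The plant relatives of the yeast enzyme include the 12-oxophytodienoate reductases, one of which acts in jasmonate synthesis.

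The libraries held 42.1 M to 56.5 M trimmed reads. Treated ZH11 replicate 2 stood apart from the other libraries. On the first principal component (43.9% of the variance) its score was 97.3, against -40.7 to 15.1 in the others. Its GC content was 52.04%, against 53.51% to 55.43%. Replicates differed by a median absolute log2 value of 0.45 for treated ZH11, 0.18 for untreated ZH11, 0.15 for treated OE1 and 0.080 for untreated OE1, over genes with a mean of 5 TPM or more. Results are therefore given with and without this library where they rest on it. Markers of both organ systems were detected in every library. The summed level of 7 root genes ranged from 408 to 734 TPM and that of 29 shoot genes from 48135 to 64574 TPM, and the iron transporter gene IRT1 was near 0, at 0.31 to 1.13 TPM.

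The responses of the genotypes differed for 8 genes at a Benjamini-Hochberg adjusted p under 0.05 (limma) and an absolute log2 difference of at least 1. The OE1 response was higher for 7 genes, or 0.0277% of those tested, and lower for 1 gene, or 0.00396%. Of the 7 higher genes, 5 entered the comparison through treated OE1 alone, as described below. Without the adjustment, 543 genes (2.15%) had a higher and 307 genes (1.21%) a lower OE1 response at p under 0.05 and the same size, and these shares serve below as the background for gene families. They belong to the fit of all 8 libraries. Family counts without treated ZH11 replicate 2 come from a fit with 1 treated ZH11 library and are not measured against them. Across all genes tested the median difference was -0.05, with a median response of 0.02 in ZH11 and -0.04 in OE1. The number of calls depended on single libraries. Leaving out either untreated ZH11 library or any 1 of the OE1 libraries left 0 calls, against 12 higher and 16 lower without treated ZH11 replicate 2 and 1336 and 1373 without treated ZH11 replicate 1. The 0 counts stood beside 501 to 1171 higher and 311 to 574 lower genes at an unadjusted p under 0.05 of any size in those fits. A pseudocount of 0.1 in place of 1 also left 0 calls, with 904 higher and 648 lower genes at that unadjusted p.

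**Figure D1:**
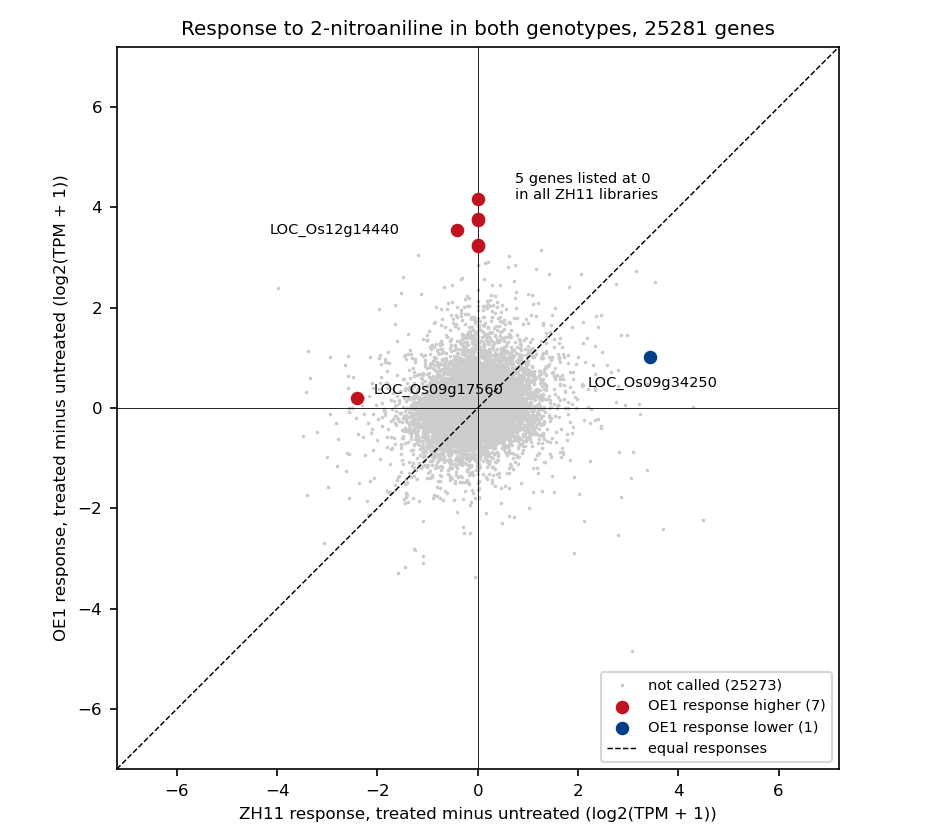
Response of each of the 25281 genes in ZH11 (horizontal axis) and in OE1 (vertical axis), treated minus untreated mean on the log2(TPM + 1) scale, with the line of equal responses dashed. The 7 genes called higher in OE1 (red) lie above the line and the 1 called lower (blue) below it, and 5 of the 7 sit at a ZH11 response of 0 because they were listed at 0 TPM in all ZH11 libraries.

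Of the called genes 3 were present in both genotypes, and each showed a different form of divergence. The O-methyltransferase gene LOC_Os09g17560 on chromosome 9 is matched to the acetylserotonin O-methyltransferase ASMT1, an enzyme of the last step of melatonin synthesis. It was at 43.0 and 43.6 TPM in untreated ZH11, 7.70 and 7.04 TPM in treated ZH11, 14.1 and 13.6 TPM in untreated OE1 and 15.9 and 16.4 TPM in treated OE1. Treated ZH11 was the lowest group and untreated ZH11 the highest, both OE1 groups lay between them, and no groups overlapped. The OE1 response was higher by 2.61 ± 0.20 (SE, n = 2 libraries per group, limma adjusted p = 0.0187), from a response of -2.41 ± 0.14 in ZH11 and 0.21 ± 0.14 in OE1.

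The lectin gene LOC_Os12g14440 on chromosome 12 encodes a protein with a jacalin-like carbohydrate-binding domain and a dirigent-like domain, and its best rice match is GOS9. It was at 13.0 and 11.2 TPM in untreated ZH11, 7.55 and 10.4 TPM in treated ZH11, 4.01 and 2.77 TPM in untreated OE1 and 45.0 and 55.1 TPM in treated OE1. Treated OE1 was higher than every other library, and untreated OE1 was lower than every other, so that the order of the genotypes was opposite in the untreated and treated plants. The OE1 response was higher by 3.95 ± 0.32 (SE, limma adjusted p = 0.0229).

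On chromosome 9, LOC_Os09g34250 encodes a UDP-glycosyltransferase, an enzyme that adds sugars to small molecules, and its best match is the barley enzyme UGT13248. It was the 1 gene called lower, at 4.73 and 4.09 TPM without and 57.8 and 56.6 TPM with treatment in ZH11, against 7.08 and 6.71 TPM without and 15.8 and 14.0 TPM with treatment in OE1. Both treated ZH11 libraries stood above all others, and treated OE1 stood above both untreated groups. The response was 3.43 ± 0.15 in ZH11 and 1.01 ± 0.15 in OE1, a difference of -2.42 ± 0.22 (SE, limma adjusted p = 0.0378).

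The other 5 called genes were listed at 0 TPM in all 4 ZH11 libraries, so only OE1 libraries carry their values and no fold against ZH11 is given. They reached 1 TPM in treated OE1 alone, as few genes did in any 1 group (142 of those tested, or 0.562%). They thus entered the test only through the group in which they were high and so had to differ, and their p-values are not read as support for a difference of responses. What an exact 0 in ZH11 stands for cannot be told from these files. A filter at a mean of 5 TPM or more removed these 5 genes before the test, so it says nothing about them. The 3 genes present in both genotypes were called with it. The transposon-annotated gene LOC_Os12g42750, matched to the maize AC9 transposase, was at 0.51 and 0.47 TPM in untreated and 19.2 and 19.4 TPM in treated OE1. Its treated OE1 libraries stood far above the untreated ones, which were themselves just above 0.

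Another 3 called genes were listed at 0 in untreated OE1 as well, and treated OE1 was then the 1 group with a value above 0. LOC_Os09g07150, annotated as an expressed protein, was at 16.5 and 17.4 TPM in treated OE1. LOC_Os01g33720, a hypothetical protein gene of 162 nt, was at 8.50 and 8.46 TPM, and the assembled gene MSTRG.19809, of 239 nt, at 10.3 and 15.1 TPM. These 3 genes carry no domain or Swiss-Prot match and were named because they were called. On the log2(TPM + 1) scale the differences of these 3 genes and LOC_Os12g42750 were 3.24 to 4.16. These sizes depend on the value of 1 that was added and are no bounds. None of the 3 called genes present in both genotypes changed sign under any alternative in which it was tested. Their responses did not overlap between the genotypes, so leaving out 1 library could not change a sign.

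**Figure D2:**
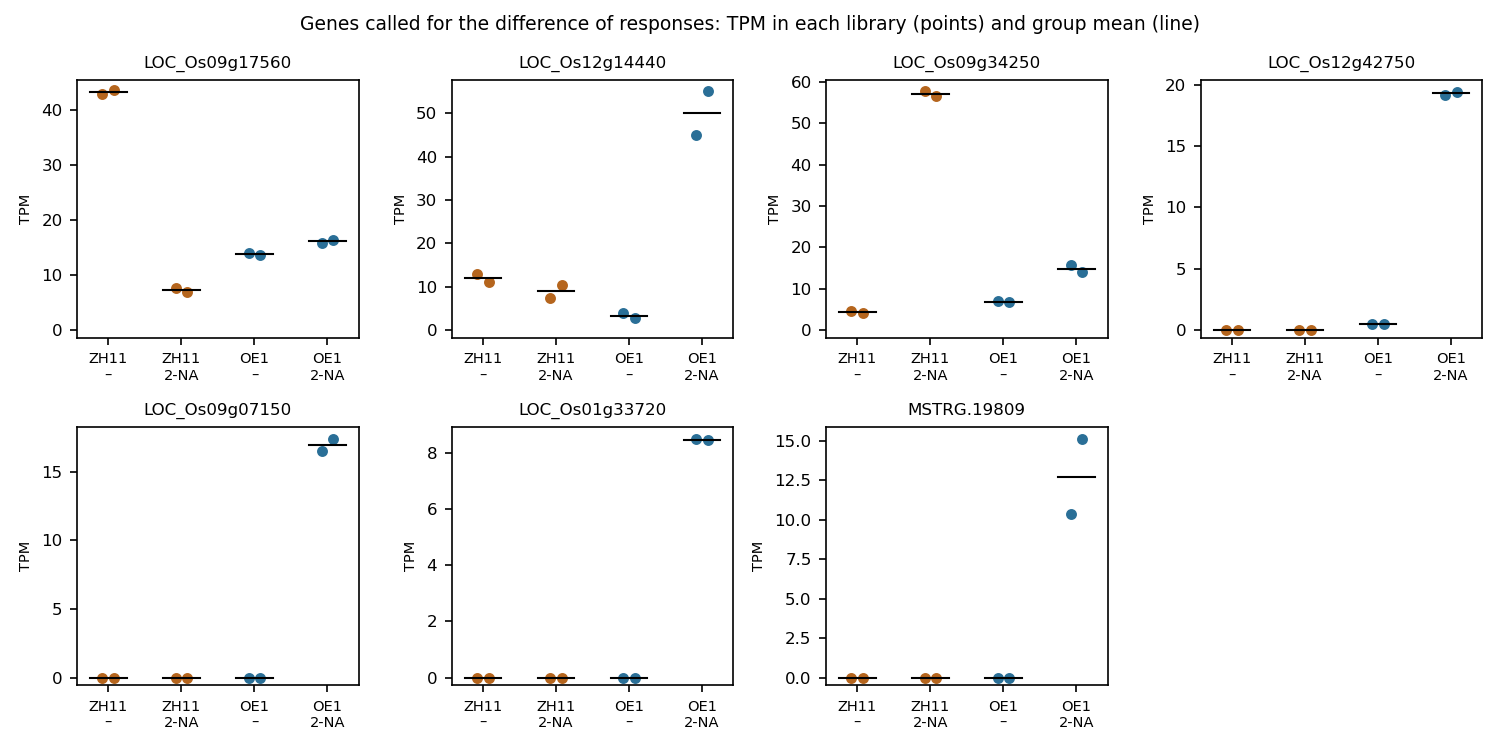
TPM of 7 of the 8 genes called for the difference of responses, 1 panel per gene, with each library as a point and the group mean as a line, for untreated (–) and treated (2-NA) ZH11 and OE1. LOC_Os09g17560 is highest in untreated ZH11, LOC_Os09g34250 in treated ZH11, and the other 5 shown in treated OE1.

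The genes next in order of unadjusted p did not pass the adjusted threshold, and their values are given as measurements. Of the 15 named, 6 had a higher and 9 a lower OE1 response, and 10 of the 15 passed when treated ZH11 replicate 2 was left out. None changed sign under any alternative in which it was tested.

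On the higher side, the gene LOC_Os03g55680, matched to the Arabidopsis CCG-binding protein 1, was at 3.81 and 3.16 TPM without and 1.96 and 1.16 TPM with treatment in ZH11, against 7.77 and 8.20 TPM without and 37.3 and 33.4 TPM with treatment in OE1. Treated OE1 was high against all other libraries, and the difference was 2.84 ± 0.29 (SE, limma adjusted p = 0.0544). The gene LOC_Os06g13390, matched to a maize anthranilate O-methyltransferase, which makes a volatile methyl ester, was at 5.06 and 5.32 TPM in untreated ZH11, 0.05 and 0 TPM in treated ZH11, 0.34 and 0.65 TPM in untreated OE1 and 0.94 and 1.01 TPM in treated OE1. Here untreated ZH11 was the 1 high group, and the difference was 3.0 ± 0.31 (SE, limma adjusted p = 0.0563). For the terpene synthase gene LOC_Os04g27670 the levels were 22.4 and 23.6 TPM in untreated ZH11, 7.55 and 10.9 TPM in treated ZH11, 4.25 and 4.95 TPM in untreated OE1 and 10.7 and 9.45 TPM in treated OE1. Untreated ZH11 was again highest and untreated OE1 lowest, and the treated groups overlapped in range (difference 2.24 ± 0.28).

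Another 3 genes of the higher side encode proteins of varied function. LOC_Os03g61680 is matched to HYPK, which in human cells binds the complex that acetylates new proteins at their N-terminus. It was at 47.4 and 43.6 TPM in untreated ZH11, 43.2 and 34.9 TPM in treated ZH11, 41.2 and 45.0 TPM in untreated OE1 and 109 and 132 TPM in treated OE1, so that treated OE1 alone stood high (difference 1.68 ± 0.24). The cysteine protease gene LOC_Os06g38450, matched to the senescence-specific protease SAG39, was at 26.2 and 26.9 TPM in untreated ZH11, 10.5 and 14.4 TPM in treated ZH11, 13.7 and 11.6 TPM in untreated OE1 and 24.9 and 21.6 TPM in treated OE1, so that untreated ZH11 and treated OE1 were the high groups (difference 1.88 ± 0.27). The photosystem II 10 kDa polypeptide gene LOC_Os07g05365 had the same form, at 33.2 and 31.6 TPM in untreated ZH11, 12.6 and 5.86 TPM in treated ZH11, 15.8 and 14.7 TPM in untreated OE1 and 32.5 and 36.5 TPM in treated OE1 (difference 2.91 ± 0.42). Without treated ZH11 replicate 2 its difference was 2.42.

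Among genes with a lower OE1 response, LOC_Os07g44110 encodes a cytochrome P450 matched to the Arabidopsis enzyme CYP709B2. It was at 7.48 and 7.63 TPM without and 24.5 and 36.0 TPM with treatment in ZH11, against 16.4 and 17.1 TPM without and 8.98 and 6.59 TPM with treatment in OE1. Treated ZH11 was highest, and treated OE1 lay below untreated OE1 (difference -2.87 ± 0.31, limma adjusted p = 0.0699). LOC_Os03g05910, matched to the Arabidopsis Monooxygenase 2, was at 11.2 and 11.8 TPM in untreated ZH11, 51.3 and 54.5 TPM in treated ZH11, 15.8 and 14.5 TPM in untreated OE1 and 22.3 and 19.8 TPM in treated OE1. Treated ZH11 stood above all other libraries, and treated OE1 stood above the untreated ones by less (difference -1.65 ± 0.20). The alpha carbonic anhydrase match LOC_Os08g32840, of a family that interconverts carbon dioxide and bicarbonate, was at 9.65 and 10.1 TPM without and 18.9 and 29.9 TPM with treatment in ZH11, against 13.7 and 15.2 TPM without and 5.81 and 5.70 TPM with treatment in OE1 (difference -2.38 ± 0.31). In these 3 genes treated ZH11 was the highest group.

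In another form on the lower side, untreated OE1 was the high group. The cysteine proteinase gene LOC_Os01g67980, matched to the barley enzyme EP-B1 that digests storage proteins of the seed, was at 16.7 and 17.5 TPM without and 31.0 and 18.8 TPM with treatment in ZH11, against 57.0 and 48.7 TPM without and 8.75 and 11.3 TPM with treatment in OE1 (difference -2.77 ± 0.35). The alpha-amylase 3B match LOC_Os09g28420, a starch-degrading enzyme, was at 18.1 and 13.1 TPM without and 29.7 and 19.6 TPM with treatment in ZH11, against 58.4 and 42.3 TPM without and 11.9 and 9.19 TPM with treatment in OE1 (difference -2.76 ± 0.39). For both genes treated OE1 was the lowest group. A carboxyl-terminal peptidase gene, LOC_Os01g37000, was at 158 and 179.9 TPM without and 114 and 199.6 TPM with treatment in ZH11, against 218 and 224 TPM without and 43.2 and 34.3 TPM with treatment in OE1 (difference -2.33 ± 0.37). Its treated OE1 libraries were below all others, and the ZH11 groups overlapped.

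The cysteine protease gene LOC_Os09g39090, matched to the daylily SEN102, was at 1.25 and 1.36 TPM in untreated ZH11, 0.07 and 0.10 TPM in treated ZH11, 8.53 and 7.06 TPM in untreated OE1 and 0 and 0.06 TPM in treated OE1, so that both treated groups were near 0 and the groups differed before treatment (difference -2.0 ± 0.30). The retrotransposon-annotated gene LOC_Os05g45130 was at 1.75 and 1.04 TPM in untreated ZH11, 1.97 and 1.40 TPM in treated ZH11, 10.7 and 8.70 TPM in untreated OE1 and 1.36 and 1.67 TPM in treated OE1 (difference -2.26 ± 0.34). An assembled gene matched to a cyclic nucleotide-gated ion channel, MSTRG.20389, was at 5.32 and 3.01 TPM without and 13.1 and 13.2 TPM with treatment in ZH11, against 7.77 and 13.8 TPM without and 3.62 and 3.32 TPM with treatment in OE1 (difference -2.84 ± 0.43). Treated ZH11 was high in it, and 1 of the untreated OE1 libraries reached the same level.

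Genes of the detoxification families with the strongest average response to 2-nitroaniline had a smaller response in OE1 than in ZH11 in most cases. Of 711 tested genes of the P450, glycosyltransferase, glutathione S-transferase, BAHD acyltransferase, aldo-keto reductase, peroxiredoxin, ABC and MATE families, 25 had an average response of at least 1 on the log2 scale. The OE1 response lay below the ZH11 response in 22 of the 25 (88%), with a median response of 2.11 in ZH11 and 1.21 in OE1 and a median difference of -0.75. Among all 223 tested genes with such an average response, OE1 lay below ZH11 in 108 (48.4%), with a median difference of 0.05. Without treated ZH11 replicate 2 the count was 23 of the same 25 genes and the median -0.66. One of the 25, LOC_Os11g27440, carries an ABC transporter domain match but is annotated as an immune receptor of the NB-ARC type. Without it the count was 21 of 24 (87.5%) and the median -0.73. These counts are descriptions with no test. The average response that chose these genes includes the responses of both genotypes.

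The P450 gene LOC_Os03g55240 led this set. It was at 16.2 and 16.0 TPM without and 174 and 226 TPM with treatment in ZH11, against 16.4 and 13.6 TPM without and 97.8 and 83.7 TPM with treatment in OE1. Both treated groups stood far above the untreated ones, treated ZH11 highest, with a difference of -1.02 (95% interval -1.62 to -0.43, limma adjusted p = 0.457). The gene of 1-Cys peroxiredoxin B, LOC_Os07g44440, whose product reduces peroxides, was at 98.8 and 122 TPM without and 663 and 977 TPM with treatment in ZH11, against 121 and 114 TPM without and 322 and 321 TPM with treatment in OE1. Its groups had the same order, with a difference of -1.41 (95% interval -2.09 to -0.74, limma adjusted p = 0.355).

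The BAHD acyltransferase gene LOC_Os02g28220, matched to an Arabidopsis malonyltransferase for phenolic glucosides, was at 0.59 and 0.77 TPM in untreated ZH11, 9.32 and 16.0 TPM in treated ZH11, 1.90 and 1.81 TPM in untreated OE1 and 7.58 and 6.21 TPM in treated OE1. The difference was -1.52 (95% interval -2.40 to -0.64, limma adjusted p = 0.456). A further BAHD gene, LOC_Os02g28170, was at 7.26 and 5.61 TPM in untreated ZH11, 31.0 and 42.7 TPM in treated ZH11, 6.65 and 7.70 TPM in untreated OE1 and 17.6 and 19.1 TPM in treated OE1. The glutathione S-transferase gene GSTU1 (LOC_Os09g20220) was at 1.79 and 2.97 TPM without and 23.2 and 17.1 TPM with treatment in ZH11, against 3.98 and 2.66 TPM without and 6.96 and 5.20 TPM with treatment in OE1. Both were chosen after their values were seen, and both were highest in treated ZH11.

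For other induced genes the interval of the difference included 0. The P450 gene LOC_Os07g23570 was at 3.65 and 3.57 TPM in untreated ZH11, 40.4 and 40.2 TPM in treated ZH11, 2.39 and 2.54 TPM in untreated OE1 and 24.4 and 19.8 TPM in treated OE1 (difference -0.43, interval -0.97 to 0.11). The glycosyltransferase gene LOC_Os01g08440 was at 16.3 and 10.4 TPM without and 87.9 and 101 TPM with treatment in ZH11, against 15.0 and 12.6 TPM without and 83.0 and 78.7 TPM with treatment in OE1 (difference -0.29, interval -1.01 to 0.43, with a change of sign under 2 alternatives). Both treated groups of these genes stood far above the untreated groups. Their intervals do not show that the genotypes responded alike, since the lower bounds reach about -1. The P450 genes LOC_Os06g03930 and LOC_Os03g55230 had differences of -0.60 and -0.53, with intervals of -1.40 to 0.21 and -1.20 to 0.15. LOC_Os09g34250, described above, was the 1 gene of the set that was called.

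**Figure D3:**
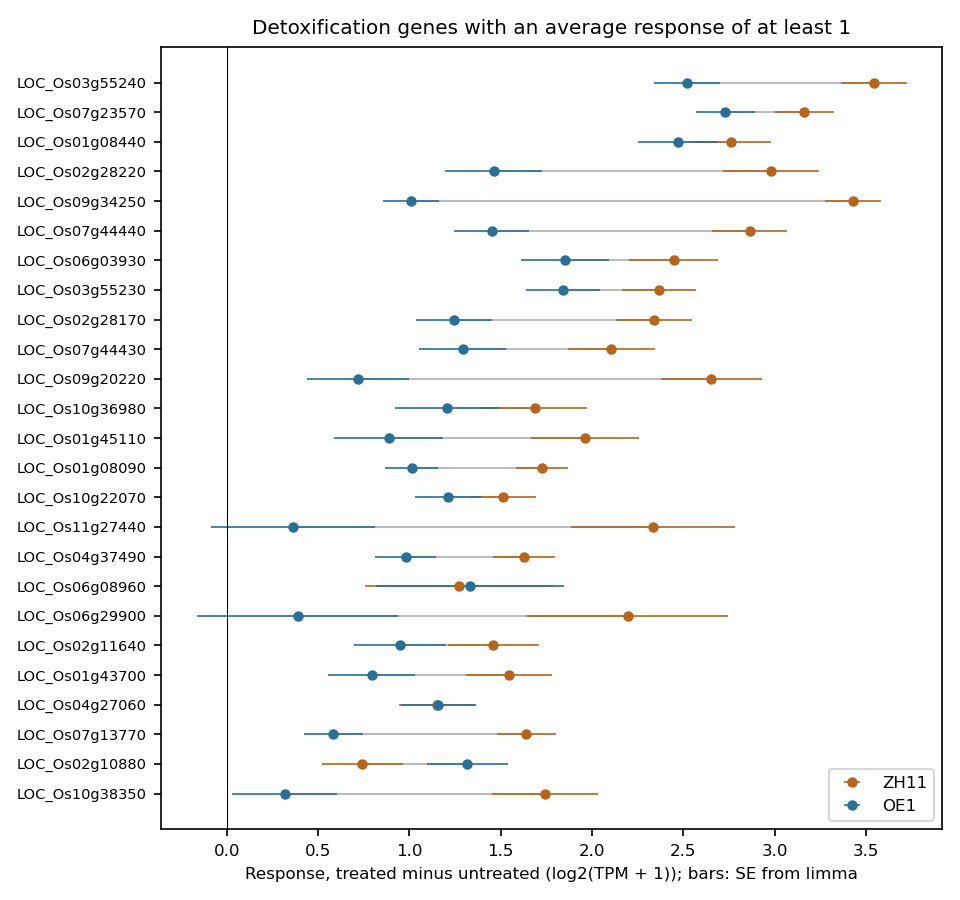
Response in ZH11 (orange) and OE1 (blue) of the 25 detoxification genes with an average response of at least 1, in order of that average, on the log2(TPM + 1) scale with SE bars from limma. The OE1 point lies left of the ZH11 point in 22 of the 25 genes.

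Counted over whole detoxification families, lower OE1 responses outnumbered higher ones before adjustment in 5 of the 8. Of 221 cytochrome P450 genes tested, 2 had a higher and 9 a lower OE1 response at an unadjusted p under 0.05 and a log2 difference of at least 1 (0.905% and 4.07%, against 2.15% and 1.21% of all genes). The median difference of the family was -0.10, and -0.01 without treated ZH11 replicate 2, when 4 were higher and 7 lower. Of 118 glycosyltransferase genes 1 was higher and 5 lower, or 3 and 4 without that library. Of 80 glutathione S-transferase genes 1 was higher and 3 lower (0 and 4 without it), and of 76 BAHD genes 0 and 3 (0 and 2 without it). For 110 genes with an ABC transporter domain the counts were 2 and 6, or 2 and 4 without it. Of the 6, LOC_Os11g27440 is annotated as an immune receptor and LOC_Os10g29650 as a retrotransposon, and the other 108 genes had 2 higher and 4 lower. Of 33 peroxiredoxin genes 1 was higher and 1 lower (1 and 2 without that library), while none of the 29 aldo-keto reductase or 44 MATE transporter genes reached this size and p in either direction. Further P450 genes of the lower side were chosen after their values were seen. LOC_Os06g43410 was at 6.07 and 5.58 TPM in untreated ZH11, 7.10 and 9.44 TPM in treated ZH11, 8.89 and 9.50 TPM in untreated OE1 and 3.50 and 2.44 TPM in treated OE1, and LOC_Os10g38090 was at 28.0 and 32.1 TPM without and 59.3 and 85.4 TPM with treatment in ZH11, against 43.4 and 42.3 TPM without and 45.4 and 40.2 TPM with treatment in OE1. The former was lowest in treated OE1 and the latter highest in treated ZH11.

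None of the rice old yellow enzyme relatives tested had a difference of responses of this size and p. The matrix held 13 of them, 11 were tested, and 10 had a mean of at least 1 TPM. Their differences ranged from -0.81 to 0.89. The lowest among these was that of the 12-oxophytodienoate reductase match OPR5 (LOC_Os06g11210), at 57.6 and 69.7 TPM without and 74.3 and 98.2 TPM with treatment in ZH11, against 92.8 and 85.8 TPM without and 70.7 and 65.4 TPM with treatment in OE1 (limma adjusted p = 0.595). The jasmonate-synthesis reductase OPR7 (LOC_Os08g35740) was at 46.7 and 48.2 TPM without and 36.9 and 45.4 TPM with treatment in ZH11, against 44.1 and 46.3 TPM without and 43.5 and 39.0 TPM with treatment in OE1, and the other 3 groups overlapped just below untreated ZH11 (interval -0.42 to 0.58). The highest, MSTRG.15563, had a SE of 0.80 and a difference of -0.02 without treated ZH11 replicate 2.

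Among histones, expansins and xyloglucan endotransglucosylases, more genes had a higher than a lower OE1 response before adjustment, and the lowest levels of these 3 families were in treated ZH11. Histones package DNA and are made mainly while cells copy it. Of 67 histone genes tested, 13 had a higher OE1 response at an unadjusted p under 0.05 and a log2 difference of at least 1 and 0 a lower one (19.4% and 0%, against 2.15% and 1.21% of all genes), and none was called. The median histone gene had 935 nt, and among all genes of over 500 and up to 1000 nt the shares were 5.81% and 1.37%. The median response of the family was -0.38 in ZH11 and -0.02 in OE1, and the median difference 0.45. Without treated ZH11 replicate 2 the counts were 12 and 0 and the median difference 0.37.

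The histone H3 gene LOC_Os05g36280, one of several near-identical copies among which reads may be split uncertainly, was at 109 and 136 TPM in untreated ZH11, 41.9 and 39.9 TPM in treated ZH11, 104 and 111 TPM in untreated OE1 and 95.3 and 105 TPM in treated OE1. Treated ZH11 was low in both replicates, and the other 3 groups overlapped or lay close together (difference 1.45 ± 0.21). The core histone gene LOC_Os03g17100 was at 267 and 336 TPM in untreated ZH11, 99.4 and 90.6 TPM in treated ZH11, 282 and 276 TPM in untreated OE1 and 225 and 228 TPM in treated OE1 (difference 1.35 ± 0.21). Another, LOC_Os02g45940, was at 95.6 and 94.8 TPM in untreated ZH11, 43.7 and 44.2 TPM in treated ZH11, 90.3 and 92.8 TPM in untreated OE1 and 88.7 and 95.3 TPM in treated OE1 (difference 1.10 ± 0.17). These genes, chosen after their values were seen, each had the same low group. The wall-loosening expansins showed 5 higher and 0 lower genes of 40, with a median difference of 0.36 with and without treated ZH11 replicate 2. The beta-expansin gene EXPB11 (LOC_Os02g44108) was at 23.7 and 20.2 TPM without and 8.41 and 8.22 TPM with treatment in ZH11, against 23.7 and 17.7 TPM without and 19.2 and 17.6 TPM with treatment in OE1 (difference 1.15 ± 0.26), again lowest in treated ZH11.

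Xyloglucan endotransglucosylases, which cut and rejoin wall polymers, had 3 higher and 0 lower genes of 23 (13.0% and 0%) and a median difference of 0.40, or 0.37 without that library. One of them, LOC_Os11g33270, was at 14.3 and 17.8 TPM without and 8.32 and 8.24 TPM with treatment in ZH11, against 17.8 and 10.1 TPM without and 19.0 and 17.9 TPM with treatment in OE1, lowest in both treated ZH11 libraries (difference 1.30 ± 0.36). Other groups of the growth and photosynthesis programmes depended more on treated ZH11 replicate 2. The 329 ribosomal protein genes had a median difference of 0.23, or 0.10 without it. Of them 6 were higher and 0 lower (1.82% and 0%, against 2.15% and 1.21% of all genes). Their median length was 886 nt, and genes of over 500 and up to 1000 nt had shares of 5.81% and 1.37%. The 26 light-harvesting genes, which bind chlorophyll, had a median of 0.32, or 0.17 without it, and 0 genes of the given size and p in either direction. Cyclins, which drive the cell cycle, had 0 higher and 1 lower of 40 genes and a median of -0.02. Kinesins, motor proteins of which many act in cell division, had 1 higher and 0 lower of 44 genes, with a median of -0.13, or 0.26 without that library.

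**Figure D4:**
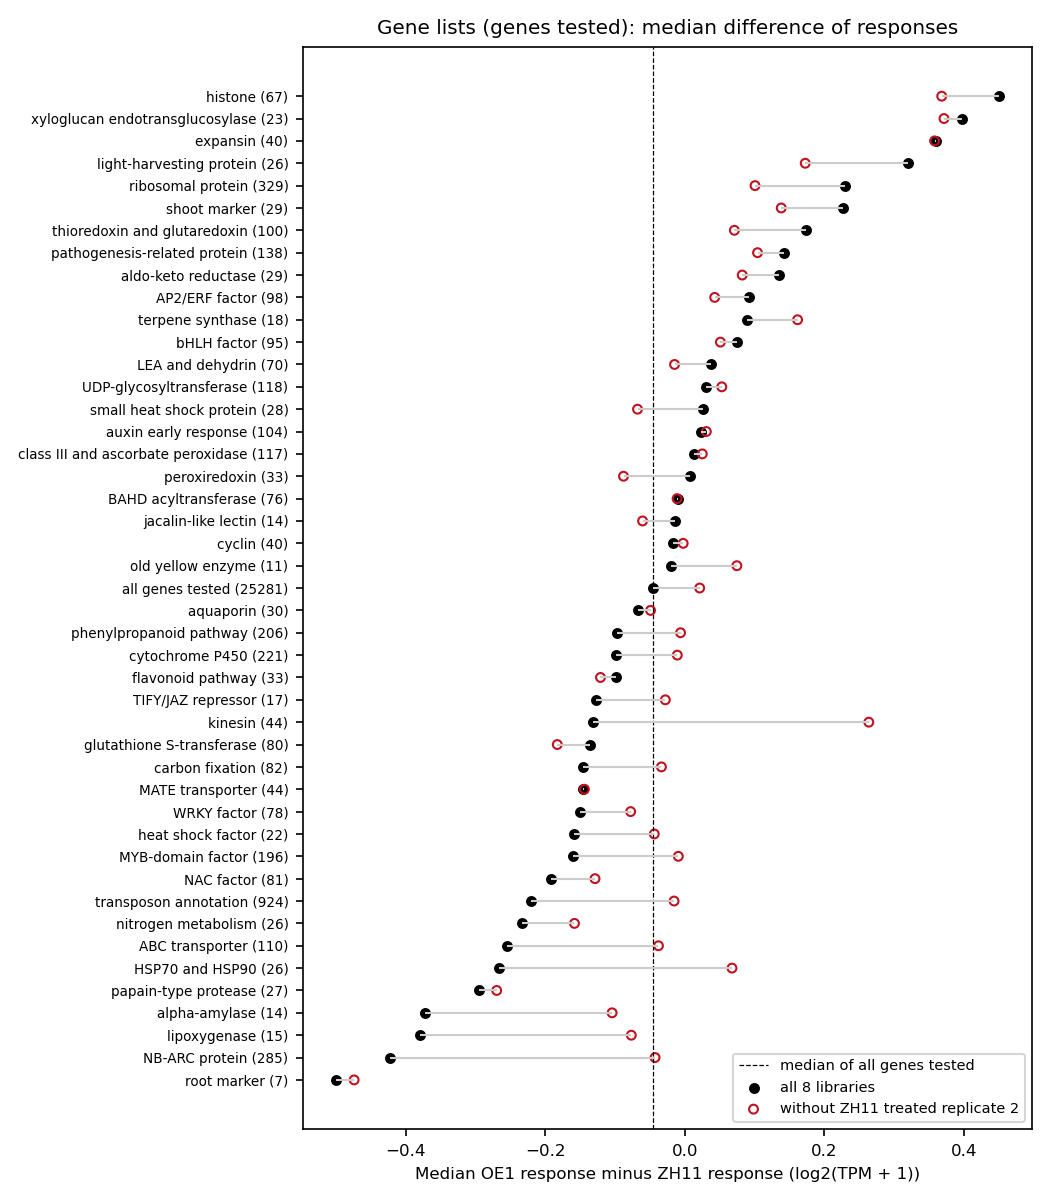
Median difference of responses (OE1 minus ZH11, log2(TPM + 1)) for each of 44 gene lists and for all genes tested, with all 8 libraries (filled) and without treated ZH11 replicate 2 (open), and the number of genes tested in brackets. Histones, xyloglucan endotransglucosylases and expansins have the highest medians with all libraries and keep values of 0.36 to 0.37 without that library, while NB-ARC proteins have -0.42 with and -0.04 without it.

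**Figure D5:**
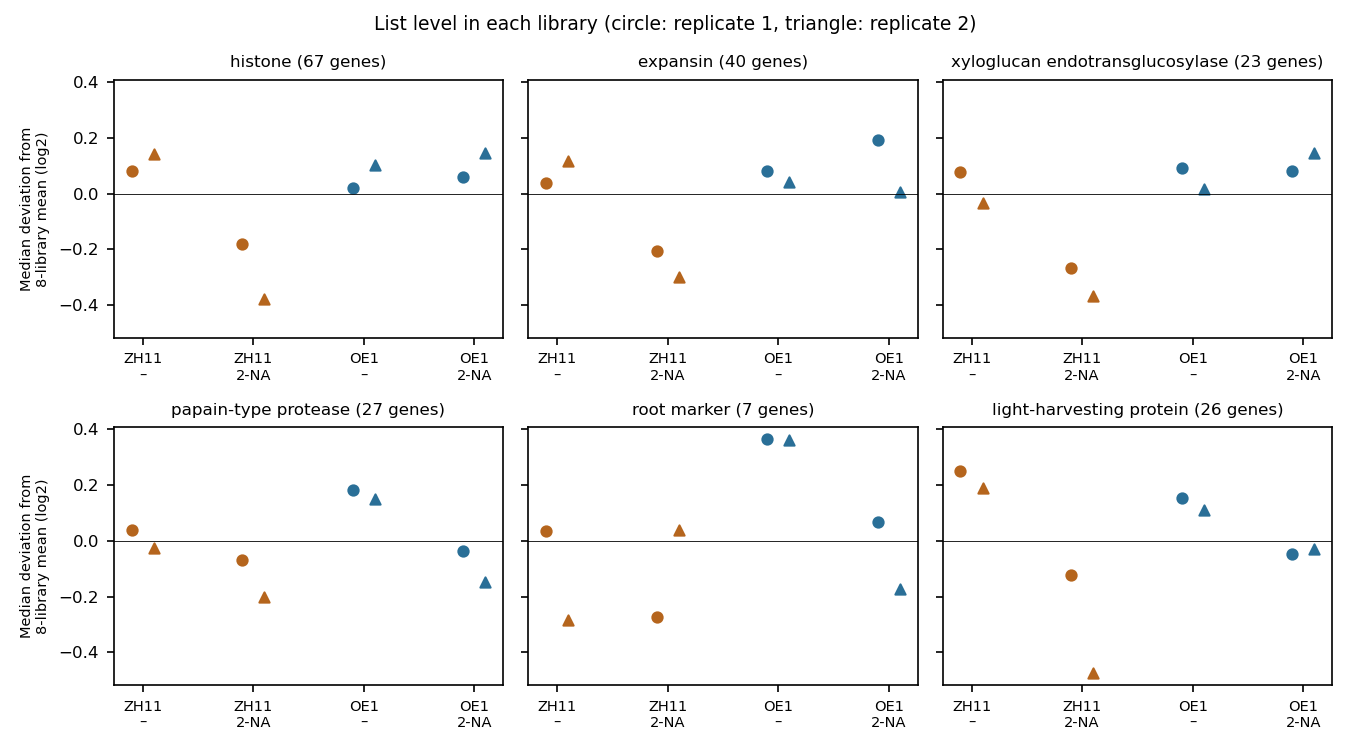
Level of 6 gene lists in each library, as the median over genes of the log2 deviation from the 8-library mean, with replicate 1 as a circle and replicate 2 as a triangle. Histones, expansins and xyloglucan endotransglucosylases are lower in both treated ZH11 libraries than in the other 6, and root markers are highest in untreated OE1.

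Histones, expansins and xyloglucan endotransglucosylases were lower in each treated ZH11 library than in each of the other 6. The histone level was -0.18 and -0.38 in treated ZH11, 0.08 and 0.14 in untreated ZH11, 0.02 and 0.10 in untreated OE1, and 0.06 and 0.15 in treated OE1, as medians of the log2 deviation from the 8-library mean. Over all genes the same measure ranged from -0.06 to 0.08 over the libraries. Median difference also went with gene length. It was 0.24 for genes of over 500 and up to 1000 nt and -0.61 for the 287 genes over 5000 nt, and 0.02 and -0.08 without treated ZH11 replicate 2. The share of genes higher before adjustment went with length too. It was 5.81% for genes of over 500 and up to 1000 nt and 1.49% for those of over 1000 and up to 2000 nt. Histone genes had a median length of 935 nt and NB-ARC genes, for intracellular immune receptors, 3386 nt. With the gradient along gene length removed from each library, the median difference was 0.29 for histones, 0.32 for expansins, 0.37 for xyloglucan endotransglucosylases and -0.08 for NB-ARC genes. Of the 44 lists, 6 changed the sign of their median without treated ZH11 replicate 2.

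Among genes of secreted defence proteins, more had a higher than a lower OE1 response before adjustment. Of 138 pathogenesis-related protein genes, 8 were higher and 2 lower (5.80% and 1.45%), and 7 and 2 without treated ZH11 replicate 2, with a median difference of 0.14. The chitinase gene Cht4 (LOC_Os04g41620), whose product cuts fungal wall chitin, was at 202 and 219 TPM without and 154 and 121 TPM with treatment in ZH11, against 132 and 132 TPM without and 215 and 221 TPM with treatment in OE1. Treatment went with lower values in ZH11 and higher values in OE1 (difference 1.34 ± 0.21). The chitinase gene Cht9 (LOC_Os05g33140) was at 12.5 and 12.7 TPM in untreated ZH11, 6.85 and 4.80 TPM in treated ZH11, 7.04 and 6.95 TPM in untreated OE1 and 13.8 and 10.1 TPM in treated OE1. The thaumatin family gene LOC_Os06g47600 was at 8.11 and 4.76 TPM without and 4.35 and 3.12 TPM with treatment in ZH11, against 6.87 and 6.81 TPM without and 14.6 and 17.1 TPM with treatment in OE1. In both, as in Cht4, treated values were below untreated ones in ZH11 and above them in OE1. A glucanase-type gene of the other side, LOC_Os01g71820, was at 62.8 and 58.1 TPM without and 51.8 and 71.5 TPM with treatment in ZH11, against 65.0 and 65.6 TPM without and 32.2 and 29.2 TPM with treatment in OE1, lowest in treated OE1 (difference -1.07 ± 0.25). The 4 genes were chosen after their values were seen.

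The family of the called lectin held differences of both signs. Of 14 jacalin-like lectin genes tested, 2 were higher and 4 lower (14.3% and 28.6%, against 2.15% and 1.21% of all genes), and the median difference was -0.01. Without treated ZH11 replicate 2 the counts were 2 and 2, and 2 of the 4 lower genes also carry an NB-ARC domain. The lectin gene LOC_Os01g25280, matched to the salt-induced lectin SALT, was at 79.1 and 63.3 TPM in untreated ZH11, 41.6 and 25.3 TPM in treated ZH11, 116 and 134 TPM in untreated OE1 and 14.4 and 16.3 TPM in treated OE1 (difference -1.85 ± 0.35). The lectin LOC_Os06g07250, matched like the called gene to GOS9, was at 89.5 and 95.3 TPM in untreated ZH11, 42.0 and 25.9 TPM in treated ZH11, 148 and 148 TPM in untreated OE1 and 13.1 and 18.5 TPM in treated OE1 (difference -1.71 ± 0.35). Both were lowest in treated OE1, the group in which LOC_Os12g14440 was highest. Another SALT match, LOC_Os06g12180, had a difference of the opposite sign (2.30 ± 0.46). It was at 2.86 and 2.41 TPM without and 0.23 and 0.76 TPM with treatment in ZH11, against 1.09 and 1.67 TPM without and 2.65 and 5.13 TPM with treatment in OE1. Heme peroxidases had 4 higher and 5 lower genes of 117 and a median of 0.01, but 6 higher and 2 lower without treated ZH11 replicate 2. Loci with adjacent numbers on chromosome 3 had differences of opposite sign. LOC_Os03g22020 was at 4.85 and 5.14 TPM without and 14.8 and 17.5 TPM with treatment in ZH11, against 7.02 and 6.84 TPM without and 7.07 and 7.80 TPM with treatment in OE1 (difference -1.43 ± 0.23). LOC_Os03g22010 was at 10.6 and 11.5 TPM in untreated ZH11, 3.20 and 4.45 TPM in treated ZH11, 10.1 and 8.42 TPM in untreated OE1 and 10.4 and 8.93 TPM in treated OE1 (difference 1.38 ± 0.28). In both genes the OE1 groups overlapped or lay close together and treated ZH11 stood apart. The NB-ARC genes had 0 higher and 5 lower of 285 (1.75% lower, near the 1.21% of all genes), and 0 and 1 without that library.

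Among papain-type protease genes, more had a lower than a higher OE1 response before adjustment. Several of them, and some amylase-domain genes, were highest in untreated OE1. Of 27 papain-type protease genes 1 was higher and 5 were lower (3.70% and 18.5%), with a median difference of -0.30, or -0.27 without treated ZH11 replicate 2. Beside the proteases given above, LOC_Os09g39070, another SEN102 match, was at 24.2 and 19.5 TPM in untreated ZH11, 7.98 and 8.82 TPM in treated ZH11, 44.1 and 42.5 TPM in untreated OE1 and 6.69 and 4.15 TPM in treated OE1 (difference -1.54 ± 0.31), highest in untreated OE1 and lowest in treated OE1. The alpha-amylase gene AMY1.1 (LOC_Os02g52700) was at 9.17 and 9.26 TPM in untreated ZH11, 8.71 and 6.12 TPM in treated ZH11, 36.0 and 24.6 TPM in untreated OE1 and 5.43 and 4.42 TPM in treated OE1 (difference -2.08 ± 0.34), with untreated OE1 as the 1 high group. Over the 14 amylase-domain genes 1 was higher and 2 lower (7.14% and 14.3%, against 2.15% and 1.21% of all genes), so these few genes went both ways. Their median moved from -0.37 to -0.10 without treated ZH11 replicate 2.

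Cytosolic glutamine synthetase GLN1-2 (LOC_Os03g12290), which incorporates ammonium into glutamine and is active in roots, had the same form. It was at 102 and 110.4 TPM without and 82.1 and 95.8 TPM with treatment in ZH11, against 208 and 212 TPM without and 79.6 and 70.5 TPM with treatment in OE1 (difference -1.22 ± 0.20, chosen after its values were seen). Together with the carbonic anhydrase match it made 2 lower and 0 higher of 26 nitrogen metabolism genes (7.69% and 0%, against 1.21% and 2.15% of all genes). A count of 2 genes is not read as a result about the list. The summed level of root markers was highest in untreated OE1. Over 7 genes it was 720.4 and 734 TPM in untreated OE1, 522 and 459 TPM in treated OE1, 490.1 and 408 TPM in untreated ZH11 and 428 and 508 TPM in treated ZH11. Much of it came from Lsi1 (LOC_Os02g51110, 363 and 378 TPM in untreated OE1) and Lsi2 (191 and 188 TPM). NAS1 (LOC_Os03g19427) was at 43.2 and 43.3 TPM in untreated and 45.6 and 45.7 TPM in treated OE1. IRT1 was also higher in treated OE1, and the other markers were lower there than in untreated OE1. The silicon exporter gene Lsi2 (LOC_Os03g01700) had a difference of -1.01 ± 0.24 and the manganese transporter gene Nramp5 (LOC_Os07g15370) one of -1.26 ± 0.34, so that 2 of the 7 were lower at the given size and p and 0 higher, and 0 and 0 without treated ZH11 replicate 2. The summed level of 29 shoot markers was 64021 and 62552 TPM in untreated OE1 and 64574 and 64443 TPM in untreated ZH11. The part of root tissue in the lower OE1 responses of the protease, amylase and glutamine synthetase genes was not tested.

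The 543 genes with a higher OE1 response before adjustment were made up of several forms. With a response of 1 in either direction on the log2(TPM + 1) scale as the limit, OE1 alone was up in 194 (35.7%), ZH11 alone was down in 128 (23.6%), both passed it with opposite signs in 25, and neither reached the limit in 193. Of the 307 genes with a lower OE1 response, ZH11 alone was up in 88 (28.7%), OE1 alone was down in 70 (22.8%), 20 went opposite ways and neither reached the limit in 119. Over all genes tested the limit was reached in neither genotype in 93.9%. The gap between the genotypes was larger in treated than in untreated plants for 465 of the 543 higher genes, and for 170 of the 307 lower genes, the other 137 of which had the larger gap in untreated plants. These counts use the same values that chose the genes and are given as a description.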

How the data were processed

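TPM per gene and library were used as deposited by the authors, to 2 decimals, from a matrix of 57403 genes in which 1 line had been emptied for this work. Read counts and the percent of GC came from the deposited trimming and alignment summaries, per the file headers. Tables of called genes deposited by the authors gave log2 fold changes and adjusted p-values, and estimated counts for called genes alone, so no test on counts was run. RNA was extracted with Trizol and libraries made with a SMARTER kit, per the labels' protocols. Cufflinks 2.2.1 is named in the submitters' processing notes without a role. Not given in the sources used here were the aligner, the counter, its strand setting and the genome build.

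The filter was a TPM of 1 or more in 2 or more libraries. A value of 1 was added and log2 taken, which understates changes of low genes. All 8 libraries entered 1 limma fit of the 4 group means with an eBayes trend, and the contrast was the OE1 response minus the ZH11 response. Each gene thus has 1 spread pooled over the groups. Calls needed a p under 0.05 after Benjamini-Hochberg adjustment over all genes tested and an absolute log2 difference of at least 1. Estimates are followed by SE with n = 2 libraries per group.

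Named genes were the 10 largest differences in each direction among called genes with an annotation, at least 5 TPM in the highest group and responses that did not overlap, filled to 10 by the smallest unadjusted p, plus the 8 detoxification genes with the largest average response and the old yellow enzyme genes. Called genes outside this rule were named too, and 1 called gene is counted but not reported here. Pfam domains, KEGG pathways and marker genes defined 44 gene lists. The members and lists were chosen with earlier results of these data known, and lists are described by counts and medians beside all genes, with no test. Symbols are those of the best Swiss-Prot match and need not be the gene itself. Chromosomes were read from locus identifiers, and no coordinates or sequences were used because the supplied gene table did not match these identifiers.

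Alternatives were TPM rescaled by median-of-ratios or TMM factors, a pseudocount of 5 or 0.1, a filter at a mean of at least 5 TPM or none, no eBayes trend, no fold threshold, a replicate block, weights by library spread, removal of the length gradient, a covariate for read length (the libraries with mean trimmed reads of 149.1 and 149.78 nt against the rest), and each library left out. The libraries with shorter reads alone, list counts without treated ZH11 replicate 2, and detoxification counts without genes annotated as another family were added after the data had been seen. R 4.3.3, limma 3.58.1, edgeR 4.0.16 (TMM factors alone), Python 3.11.15, pandas 2.3.3, numpy 2.4.6 and matplotlib 3.10.9 were used. The fit was checked on simulated data.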

Additional observations from a re-analysis of the deposited data

Results flagged for a closer look

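For 8 genes the test of the difference itself passed. The OE1 response was higher by 4.16 on the log2(TPM + 1) scale for LOC_Os09g07150, by 3.95 for the lectin gene LOC_Os12g14440 and by 3.77 for the transposon-annotated gene LOC_Os12g42750. It was higher by 3.76 for MSTRG.19809, by 3.24 for LOC_Os01g33720 and by 2.61 for the ASMT1 match LOC_Os09g17560. For the glycosyltransferase gene LOC_Os09g34250 the difference was -2.42. Of the 8 genes 5 were listed at 0 TPM in all 4 ZH11 libraries and reached 1 TPM in treated OE1 alone, so they entered the test only through that group, and what their 0 values stand for cannot be told from these files. Leaving out treated ZH11 replicate 2, the library that stood apart, could not change the estimates of those 5. Without it the difference was 4.16 for LOC_Os12g14440, 2.55 for LOC_Os09g17560 and -2.44 for LOC_Os09g34250.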

How the results depend on the processing

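None of the 3 called genes present in both genotypes and none of the 15 genes next in order changed sign under any of the alternatives in which they were tested. That outcome was largely fixed by their responses, which did not overlap, since leaving out 1 library cannot then change a sign. The number of calls moved more. From 7 higher and 1 lower, it went to 0 and 0 with a pseudocount of 0.1, to 2 and 1 in the 17429 genes that averaged 5 TPM or more, and to 1 and 0 with weights by library spread. TMM factors gave 9 and 2, median-of-ratios factors 7 and 2, no filter 9 and 5, and removal of the length gradient 9 and 4. The read-length term gave 5 and 1, a pseudocount of 5 gave 9 and 1, and no eBayes trend 8 and 1. Keeping the shorter-read libraries alone left out replicate 2 of both untreated and treated ZH11. Each ZH11 group then had 1 library, and the spread came from the OE1 libraries alone. The calls of that fit, given next, are thus not read as support for the called genes. The shorter-read libraries alone, an alternative chosen after seeing the data, gave 115 and 33, with all 8 called genes among them. Leaving out 1 library gave 0 to 1336 higher and 0 to 1373 lower calls, where the lone library of a group is assumed to vary like the others; the highest counts came without treated ZH11 replicate 1 and the 0 counts without either untreated ZH11 library or any OE1 library, and treated ZH11 replicate 2 left out gave 12 and 16, with all 8 called genes shared when either treated ZH11 library was left out. The 5 called genes at 0 TPM in all ZH11 libraries keep the same estimate when ZH11 libraries are left out. Their place among the shared calls is thus not read as stability. The causes of these moves were not tested. A replicate block gave 0 and 0 calls (at an unadjusted p under 0.05, 889 and 541), but deviations of same-numbered libraries correlated at -0.40 to 0.29 between groups, so the numbers are not taken as pairs. Of 528 list medians compared, 144 moved by more than the replicate SD. The induced detoxification count of 22 of 25 ranged from 22 to 24. No filter, no eBayes trend, no fold threshold, a replicate block, library weights and the read-length term could not move the estimated differences. The count of 22 under those settings was thus fixed and is not read as stability. With a filter at a mean of at least 5 TPM only 21 of the genes were tested, so that filter gave no value. Precision is limited by 2 libraries per group, and reads per gene were given for called genes of the authors' deposited tables alone.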

Other observations

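Transcription factor lists held few genes of the given size and p. Of 98 AP2/ERF genes, 4 had a higher and 1 a lower OE1 response at an unadjusted p under 0.05 and a log2 difference of at least 1, with a median difference of 0.09 (4.08% and 1.02%, against 2.15% and 1.21% of all genes). Without treated ZH11 replicate 2 the counts were 2 and 2. The ERF003 match LOC_Os02g55380 was at 2.18 and 1.88 TPM without and 1.84 and 0.82 TPM with treatment in ZH11, against 1.72 and 0.61 TPM without and 5.20 and 7.81 TPM with treatment in OE1, high in treated OE1. The cold-response factor match DREB1G (LOC_Os02g45450) was at 0.23 and 0.38 TPM in untreated ZH11, 0.16 and 0.16 TPM in treated ZH11, 3.77 and 4.14 TPM in untreated OE1 and 0.96 and 0.53 TPM in treated OE1, high in untreated OE1. Of 78 WRKY genes 0 were higher and 1 lower (0 and 0 without that library), and of 81 NAC genes 1 and 1 (0 and 2 without it), near the shares of all genes. The cinnamyl alcohol dehydrogenase match CAD4 (LOC_Os11g40690), of lignin synthesis, was at 1.64 and 1.86 TPM without and 1.29 and 1.32 TPM with treatment in ZH11, against 0.71 and 0.72 TPM without and 3.95 and 5.03 TPM with treatment in OE1, high in treated OE1, and the beta-glucosidase gene BGLU34 (LOC_Os10g17650) at 22.9 and 24.5 TPM in untreated ZH11, 14.8 and 20.7 TPM in treated ZH11, 27.0 and 30.1 TPM in untreated OE1 and 6.49 and 5.50 TPM in treated OE1, low in treated OE1. These genes were chosen after their values were seen.

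The authors' deposited tables of treatment effects listed 115 genes in ZH11 and 531 in OE1. Of these 36 were in both, 31.3% of the ZH11 table and 6.8% of the OE1 table, and 34 of the 36 had the same sign in the authors' deposited tables. Such list lengths also depend on replicate spread, a median absolute log2 value of 0.45 in treated ZH11 and 0.15 in treated OE1. They are not read as the extent of a response. With a log2 response of 1 as the limit, ZH11 alone was up in 322 and down in 430 of all genes tested. OE1 alone was up in 413 and down in 178. Of the 8 genes called here, 2 were listed in the authors' deposited table for ZH11, 5 in that for OE1 and 2 in neither. In the authors' deposited tables the glycosyltransferase gene LOC_Os09g34250 had log2 fold changes of 3.66 in ZH11 and 1.15 in OE1, and the P450 gene LOC_Os07g44110 had 1.95 and -1.07. The terpene synthase gene LOC_Os04g27670 had -1.38 and 1.17 in the authors' deposited tables.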
